A study of Brassica napus with 6 samples.

Results

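Class III peroxidases are secreted plant haem enzymes, and the data describe 42 of their genes in the roots of oilseed rape (Brassica napus) after glutathione was brushed on the leaves. The family was taken from 60 Arabidopsis loci, each matched by locus or symbol to array probes that the platform annotation pairs with a single gene. Of the 60 loci, 42 were measured in this way, each by 1 probe. They stand within 13350 genes that had such a probe on the whole array.

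Root RNA of the cultivar Nourin No.16 was hybridised to 6 single-colour arrays. In the foliar GSH group, 3 arrays came from plants whose leaves had received reduced glutathione (GSH, a tripeptide thiol) for 4 days, with 50 µL of a 100 mM solution on each of 3 expanded leaves, in a buffer containing the detergent Triton X-100. The control group, also 3 arrays, came from plants that the labels call untreated, with no brushed buffer named. Plants of both groups were 4 weeks old, and GSH was given to leaves only. Since no brushed control is named, the effect of GSH cannot be told apart here from that of brushing a solution on leaves. The labels call the arrays of a group biological replicates. Plants grew 4 to a container, and whether an array holds 1 plant or several is not given in the sources used here. The probe identifiers are those of an Arabidopsis array, so rape transcripts were read through probes of a related species, and several rape copies of a gene may meet at 1 probe.

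Class III peroxidases use hydrogen peroxide to oxidise phenolic compounds in the cell wall, and this couples monolignols into lignin, links suberin phenolics and cross-links wall proteins. They can also generate reactive oxygen species in the apoplast, which loosens walls. In Arabidopsis roots, members act in the Casparian strip of the endodermis, in xylem lignification and in the growth of root hairs. The large number of similar genes, many in tandem, makes single members difficult to separate by short probes.

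The main result was the absence of a detectable change. None of the 42 genes passed an adjusted p under 0.05, and 25 had a higher and 17 a lower mean after foliar GSH. The higher share was 59.5%, against 51.9% of all probes. With each array centred on its median, 33 were higher and 9 lower, a share of 78.6% higher against 81.4% of all probes. By limma's moderated test with Benjamini-Hochberg adjustment over all 22746 probes tested, 0 members were called, and the share called over all probes was 0%. An unadjusted two-sided limma p under 0.05 was reached by 1 member, 2.38% of them, against 6.75% of all probes. The 3 GSH arrays lay all above or all below the 3 control arrays at 2 members, 4.76% of them, against 11.4% of all probes. All GSH arrays were above at 1 member, against 5.63% of all probes, and below at 1, against 5.75%. Both shares were under those of the whole array, so these counts do not set the family apart. With 3 arrays a group, a lack of calls does not show that the levels were equal. In root RNA a lower signal from fewer cells of a type cannot be told apart from one of less RNA per cell.

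The size of every difference was minute on the deposited scale. Values ran from 5.09 to 12.9 units of a log scale, and the 6 arrays were nearly identical. Pairwise correlations between them were within 1.52e-08 of 1, and the median range of a probe was 1.91 millionths of a unit. AT2G43480, for example, was deposited as 5.726680742, 5.726681330 and 5.726682376 on the GSH arrays, against 5.726683200, 5.726683312 and 5.726684010 on the control arrays. How the spread between arrays came to be so small is not given in the sources used here. Values by array are therefore given below as deviations from the gene's own mean over the 6 arrays, in millionths of a unit. Differences are GSH minus control in the same unit, with the standard error (SE) of the limma fit. They are not fold changes: a wider difference or spread in one gene than in another is a property of the deposited values and does not show a larger change in RNA. Their signs depend on the level given to each array. The GSH arrays had medians lower by 0.598 millionths on average, about as much as many members differed. Probe by probe, however, the median difference over all probes was 0.0137 millionths, and 51.9% of all probes were higher. The gap in array medians was thus not a shift shared by most probes, and centring on medians put 81.4% of all probes higher.

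Root signal is considered first. It is the mean deposited value over the 6 arrays, and its percentile is that among all probes tested. It describes how bright a probe was, not how much RNA a gene made, since probes differ in affinity and in their match to rape. The members were spread over the whole range, with a median percentile of 50.9, where the median over all probes paired with 1 gene was 46.1. Of the 42 members, 10 lay above the upper quartile of all probes (6.06 units), 11 between the median and that quartile, 13 between the lower quartile and the median, and 8 below the lower quartile (5.67 units). The 23.8% above the upper quartile compares with 21.5% of the probes paired with 1 gene, so bright probes were about as frequent in the family as elsewhere.

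The brightest member was AT4G21960, named PRXR1 in the annotation and PRX42 in the Arabidopsis numbering of the family, with a signal of 7.39 units at the 98.3rd percentile. AT4G26010 (PRX44), a gene of root hair growth in Arabidopsis, followed with 6.83 units at the 96.0th percentile. AT4G33420 (PRX47), linked to lignin of the xylem vessels, had 6.65 units, and AT5G64100 (PRX69), linked to root hair growth, had 6.53 units. AT3G01190 (PRX27) had 6.37 units, and AT4G11290 (PRX39), a peroxidase of the Casparian strip, had 6.23 units. The other members above the upper quartile were AT1G49570, AT3G21770, AT3G03670 and AT1G71695. Other genes with the same roles were dimmer. Measured root hair genes ran from the 34.7th to the 96.0th percentile, and genes tied to lignin from the 17.8th to the 94.6th. The 2 measured Casparian strip genes were at the 65.8th and 85.3rd percentiles.

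The dimmest members were AT2G35380 (PRX20) at 5.50 units, AT2G24800 (PRX18) at 5.51 units and AT4G25980 (PRX43) at 5.52 units. AT3G28200, AT5G64120, AT1G14550, AT1G34510 and AT4G30170 were also under the lower quartile. The probes of the 2 members grouped here by a role in flowers or seeds of Arabidopsis were in the lower middle of the range. They were AT4G16270 (PRX40, of the tapetum) with 5.73 units and AT3G50990 (PRX36, of seed coat mucilage) with 5.70 units. Some genes tied to lignin or root hairs were about as dim, while others were bright, as given above. The dim ones included AT5G64120 (PRX71) with 5.61 units, AT5G05340 (PRX52) with 5.70 and AT5G39580 (PRX62) with 5.74. Whether a probe this dim reports expression was not tested. The tissue check had little to rest on, because 1 of 10 root markers and 2 of 6 leaf markers could be matched to a probe. The root hair expansin EXPA7 had 6.13 units at the 80.1st percentile. Among leaf genes, RCA, the activase of Rubisco, had 6.04 units at the 73.2nd percentile and LHCB4.1, an antenna protein, had 5.75 units at the 36.7th.

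**Figure D1:**
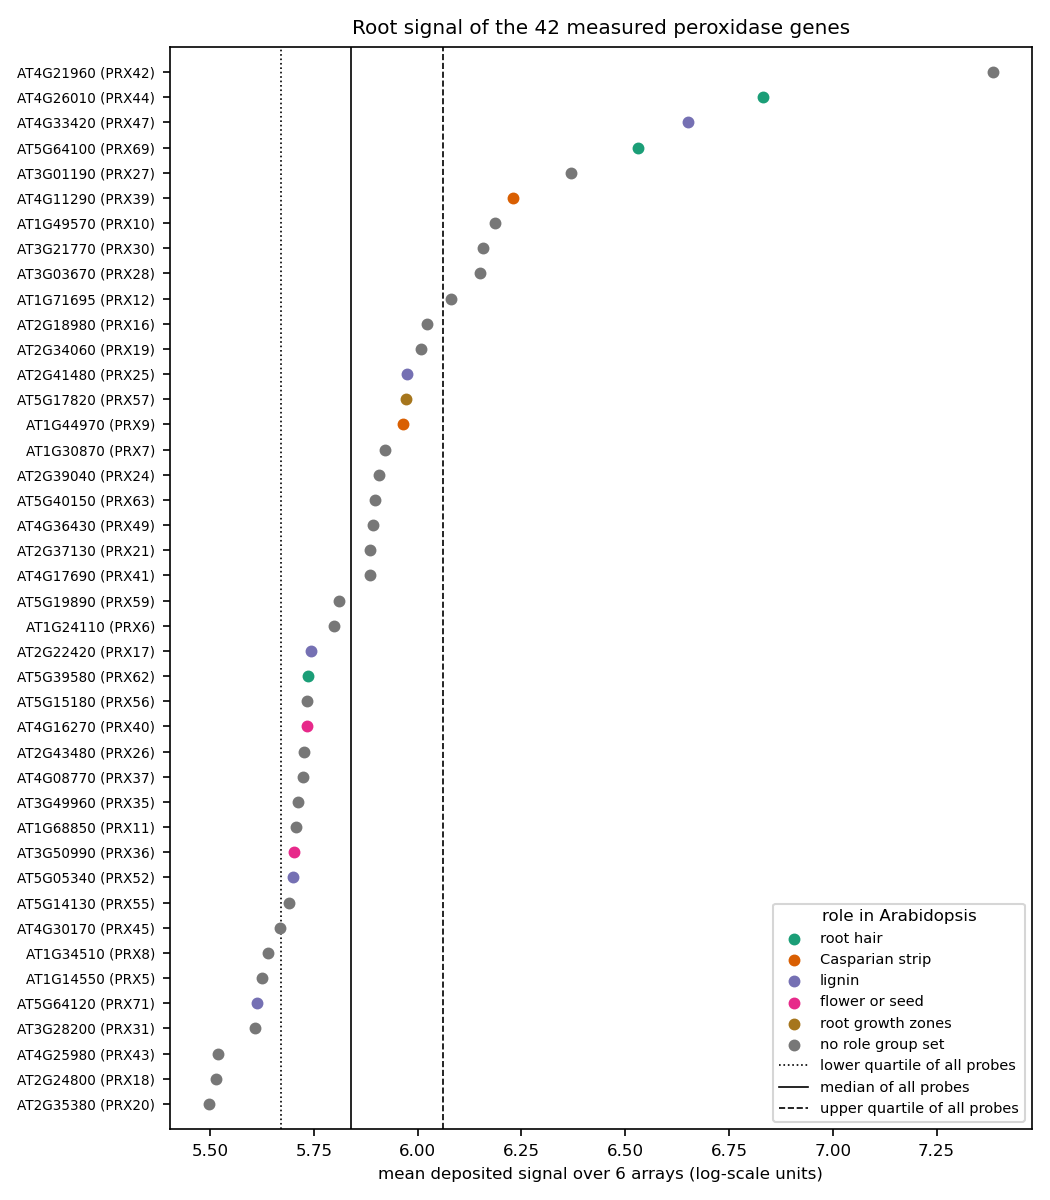
Mean deposited signal over the 6 arrays (x axis, log-scale units) of each of the 42 measured peroxidase genes (y axis, brightest at the top), coloured by the role known in Arabidopsis; vertical lines mark the lower quartile, median and upper quartile of all probes tested. AT4G21960 stands apart at 7.39 units, and 21 of the 42 genes lie below the median.

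AT2G43480 (PRX26) had the smallest p of the family. Its deviations were -1.75, -1.17 and -0.119 on GSH arrays 1 to 3, against 0.705, 0.817 and 1.51 on control arrays 1 to 3. All GSH arrays lay below all controls. The difference was -2.02 millionths (SE 0.507), with a limma adjusted p of 0.576 (unadjusted p = 0.0111) that did not pass the threshold. Its probe was in the lower middle of the range, at the 33.3rd percentile. The difference stayed between -2.47 and -1.65 when any single array was left out. With arrays centred on their medians it was -1.43 and the groups overlapped.

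AT2G22420 (PRX17), a gene tied to lignin in Arabidopsis, was the other member whose groups did not overlap, with GSH arrays above the controls. It deviated by -0.636, 3.65 and 0.228 on the GSH arrays, against -1.01, -1.55 and -0.676 on the controls. GSH replicate 2 was far above the other 5 arrays, and the lowest GSH value lay only just above the highest control value. The difference was 2.16 millionths (SE 1.22, limma adjusted p = 0.867), and it dropped to 0.875 without GSH replicate 2. Its groups also overlapped with arrays centred on their medians, while those of AT1G14550 and AT4G25980 then came apart, with GSH arrays above.

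**Figure D2:**
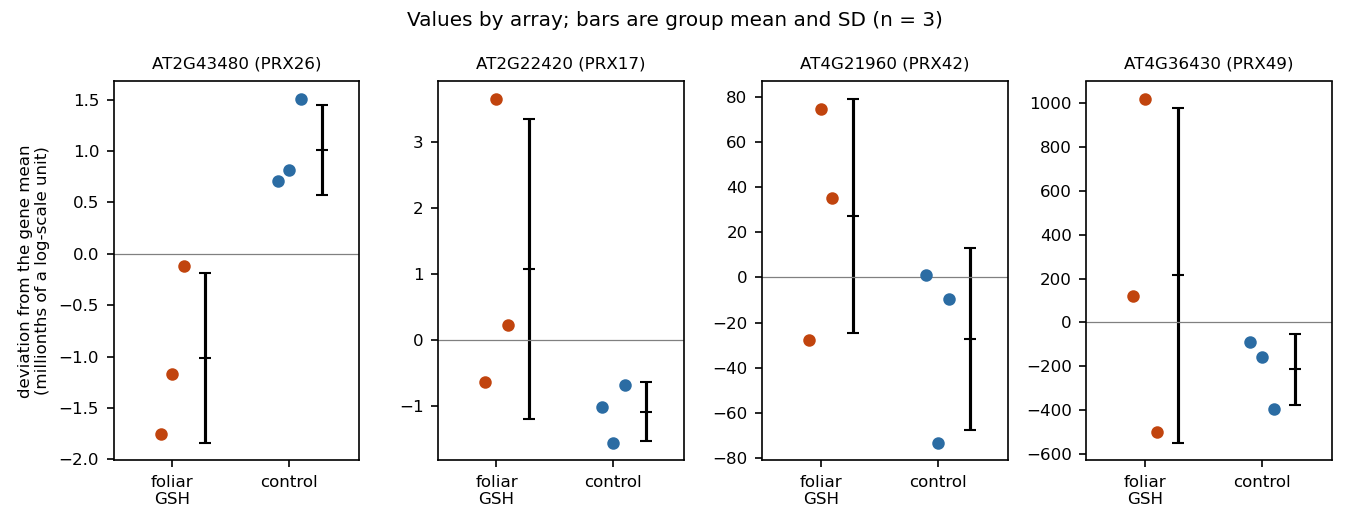
Deviation of each array from the gene's mean over 6 arrays (y axis, millionths of a log-scale unit, a separate scale for each gene) for foliar GSH and control roots (x axis); points are arrays, and bars are the group mean and SD (n = 3 each). The groups separate at AT2G43480 and, narrowly, at AT2G22420, and overlap at AT4G21960 and AT4G36430.

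Genes of root hair growth gave no shared direction. Of 6 listed, 3 were measured, 1 higher and 2 lower, and none had groups that were apart. AT4G26010 (PRX44) deviated by -2.91, -8.97 and 5.26 on the GSH arrays, against 1.91, 4.86 and -0.158 on the controls. Both the highest and the lowest array of this gene were GSH arrays. Its difference was -4.41 millionths (SE 3.98, limma adjusted p = 0.965).

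AT5G64100 (PRX69) deviated by 7.85, -5.23 and 3.91 on the GSH arrays, against -1.88, 5.21 and -9.85 on the controls, a difference of 4.35 millionths (SE 5.30). AT5G39580 (PRX62), which acts with PRX69 in the root hairs of cold-grown Arabidopsis, deviated by -1.15, 1.04 and -0.799 on the GSH arrays, against -0.136, 1.72 and -0.671 on the controls. Its difference was -0.61 millionths (SE 0.912). Each group of both genes held values on either side of the gene mean. The root hair expansin EXPA7, whose product loosens walls, had overlapping groups and a limma adjusted p of 0.935 at -27.3 millionths (SE 20.8).

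Of the 4 listed peroxidases of the Casparian strip, the lignin band that seals the endodermis, 2 were measured. AT4G11290 (PRX39) deviated by 0.132, 0.211 and 0.0452 on the GSH arrays, against 0.0752, -0.446 and -0.0178 on the controls. The low value of control replicate 2 made up most of its difference of 0.259 millionths (SE 0.195, limma adjusted p = 0.935), which was 0.101 without that array. AT1G44970 (PRX9) deviated by -14.5, -1.69 and 10.0 on the GSH arrays, against 6.11, -6.59 and 6.62 on the controls. Its GSH arrays enclosed all controls, and the difference was -4.09 millionths (SE 7.55). Without single arrays it ran from -10.1 to 2.13.

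Genes tied to lignin were the role group with most members measured, 5 of 6, of which 4 were higher and 1 lower. AT2G22420, described above, was the only one without overlap. AT4G33420 (PRX47) deviated by -1.37, 15.0 and -7.02 on the GSH arrays, against -4.37, -5.74 and 3.45 on the controls. GSH replicate 2 was again highest, and the difference of 4.44 millionths (SE 6.56) turned to -1.98 without it.

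AT5G64120 (PRX71), which is induced by wall damage in Arabidopsis, deviated by 4.21, 3.58 and -2.98 on the GSH arrays, against -0.533, 1.47 and -5.74 on the controls. Its difference was 3.20 millionths (SE 2.87). AT5G05340 (PRX52), needed for fibre lignin, deviated by 0.047, 0.925 and -0.366 on the GSH arrays, against 0.004, 0.937 and -1.55 on the controls, with a difference of 0.404 millionths (SE 0.755). In both genes control replicate 3 was the lowest array.

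The lower member was AT2G41480 (PRX25), with deviations of 14.3, -13.2 and -11.5 on the GSH arrays, against 5.59, 7.11 and -2.35 on the controls. GSH replicate 1 was the highest of the 6 arrays and the other GSH replicates the lowest pair. The difference was -6.90 millionths (SE 8.54, limma adjusted p = 0.997), and it was -15.8 without GSH replicate 1.

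A few members had values that lay far apart between arrays on the deposited scale. AT4G36430 (PRX49) had deviations of 120, 1020 and -498 on the GSH arrays, against -87.8, -158 and -396 on the controls. A GSH array was the highest and another the lowest. Its difference of 428 millionths (SE 410, limma adjusted p = 0.970) was close to its own error and dropped to 25.1 without GSH replicate 2.

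AT4G21960 (PRXR1) deviated by -27.9, 74.7 and 35.1 on the GSH arrays, against 0.993, -73.2 and -9.68 on the controls. GSH replicates 2 and 3 lay above all controls and replicate 1 did not. The difference was 54.6 millionths (SE 34.4, limma adjusted p = 0.898), and it ran from 30.9 to 82.2 without single arrays.

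The median SD between arrays was 0.99 millionths in the family and 0.724 over all probes, and 25 of 42 members were above the latter. It was over 10 millionths at 3 members, AT4G36430 (546), AT4G21960 (51.1) and AT2G41480 (11.0). A further 18 had SDs from 1 to 10, and 21 were under 1. The smallest was that of AT1G34510 (PRX8), at 0.00628 millionths, where a difference of 0.007 had an SE of 0.122 because limma shares variance between probes. AT4G36430 was at the 99.9th percentile of all SDs and at the 57.4th percentile of signal, so its wide spread did not go with a bright probe. AT4G21960 was at the 99.3rd percentile of SDs and at the 98.3rd of signal. The 10 members above the upper quartile of signal had a median SD of 3.47 millionths, and the others one of 0.849.

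**Figure D3:**
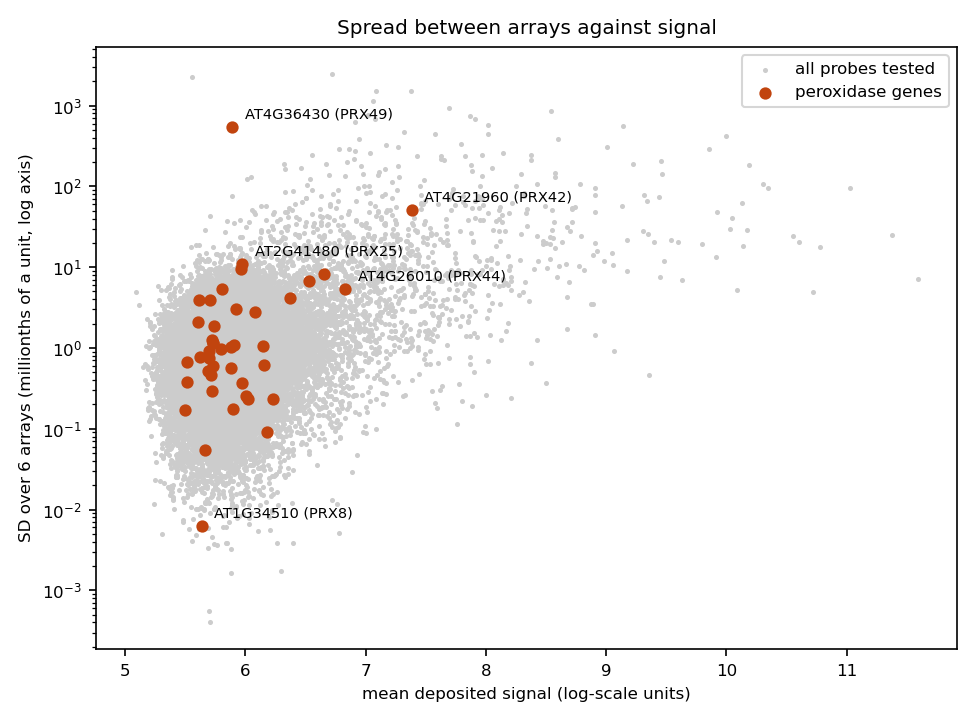
SD over the 6 arrays (y axis, millionths of a log-scale unit, log axis) against mean deposited signal (x axis, log-scale units) for all probes tested (grey) and the 42 peroxidase genes (orange). AT4G36430, at 546 millionths, lies well above most probes of like signal, and AT1G34510 has the smallest spread of the family at 0.00628.

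Among the remaining genes of small p, AT3G01190 (PRX27) deviated by -4.96, -2.15 and 0.0708 on the GSH arrays, against 7.46, 0.655 and -1.08 on the controls. Control replicate 1 was highest, and the difference was -4.70 millionths (SE 2.72, limma adjusted p = 0.874). AT5G15180 (PRX56) deviated by 0.00483, -0.321 and -0.78 on the GSH arrays, against 0.999, 0.188 and -0.0902 on the controls. Here too control replicate 1 was highest, and the difference was -0.731 millionths (SE 0.382, limma adjusted p = 0.847). AT5G14130 (PRX55) deviated by 0.0918, 0.976 and -0.162 on the GSH arrays, against -0.471, -0.368 and -0.0662 on the controls. A single GSH array fell among the controls of this gene, whose difference was 0.604 millionths (SE 0.354, limma adjusted p = 0.878).

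The other 26 members had overlapping groups as deposited, and AT1G14550 and AT4G25980 were apart after centring, as given above. Among those with higher means after GSH, AT1G68850 differed by 3.72 millionths (SE 2.83), AT5G19890 by 3.30 (SE 4.24) and AT1G71695 by 2.04 (SE 2.11). AT4G16270, the tapetum gene, differed by 0.844 (SE 0.885), AT1G14550 by 0.785 (SE 0.55) and AT4G25980 by 0.300 (SE 0.306). AT2G34060 differed by 0.296 (SE 0.206), AT5G40150 by 0.206 (SE 0.165) and AT2G35380 by 0.189 (SE 0.165). Of these 9 genes, 4 had an error larger than the difference. AT3G50990, the seed coat gene, differed by 0.176 (SE 0.63), AT1G24110 by 0.161 (SE 0.806) and AT3G03670 by 0.092 (SE 0.879). AT5G17820 (PRX57), one of the peroxidases under the root growth regulator UPBEAT1 in Arabidopsis, differed by 0.0617 (SE 0.331). AT1G49570 differed by 0.0383 (SE 0.142), AT4G30170 by 0.0163 (SE 0.129) and AT1G34510 by 0.007 (SE 0.122), each well under its error.

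Among those with lower means, AT1G30870 differed by -1.74 millionths (SE 2.40), AT2G39040 by -0.836 (SE 0.82) and AT2G37130 by -0.348 (SE 0.839). AT2G18980 differed by -0.29 (SE 0.188), AT2G24800 by -0.27 (SE 0.553) and AT4G08770, named Prx37, by -0.212 (SE 0.258). AT3G28200 differed by -0.187 (SE 1.77), AT3G21770 by -0.115 (SE 0.526), AT3G49960 by -0.0623 (SE 0.407) and AT4G17690 by -0.005 (SE 0.482). Of the 10, AT2G39040 and AT2G18980 had a difference larger than its error. With arrays centred on their medians 8 of the 10 were higher instead, AT2G18980 among them at 0.308, and AT1G30870 and AT2G39040 stayed lower. In the whole family 25 of 42 differences, against 62.7% over all probes, were smaller than their error.

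**Figure D4:**
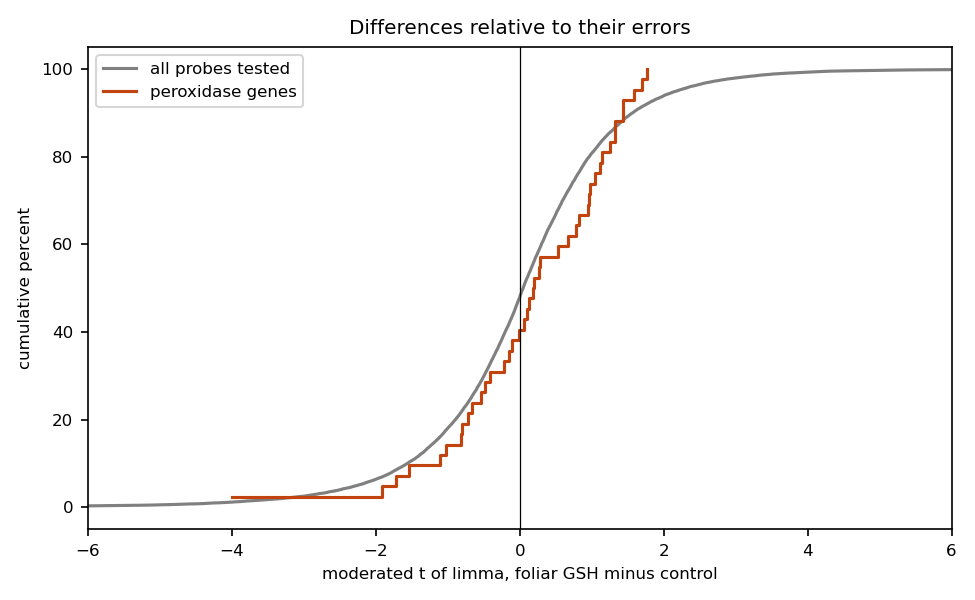
Cumulative percent of probes (y axis) by limma's moderated t for foliar GSH minus control (x axis), for the 42 peroxidase genes (orange steps) and all 22746 probes tested (grey line). The family's median t was 0.193 and that of all probes 0.0472, and AT2G43480 is the single gene far to the left.

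The highest and lowest values of the members were counted by array. A GSH array held the highest value of 31 of 42 members, 73.8% of them, against 53.7% of all probes, and the lowest value of 19, 45.2% of them, against 51.1% of all probes. GSH replicate 1 was highest at 16 members, 38.1% of them, against 23.7% of all probes. GSH replicate 2 was highest at 11 of the 42, against 15.3% of all probes, and GSH replicate 3 at 4, against 14.6%. Control replicate 2 was lowest at 15 members, 35.7% of them, against 14.6% of all probes. At 13 members, 31.0% of them, both the highest and the lowest array were GSH arrays, against 21.9% of all probes. These counts depend on the level given to each array. When each array was centred on its median, a setting chosen after seeing the data for these counts, the highest value was on a GSH array at 34 members, against 72.2% of all probes. The lowest was then on control replicate 2 at 25 members, against 57.2% of all probes.

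**Figure D5:**
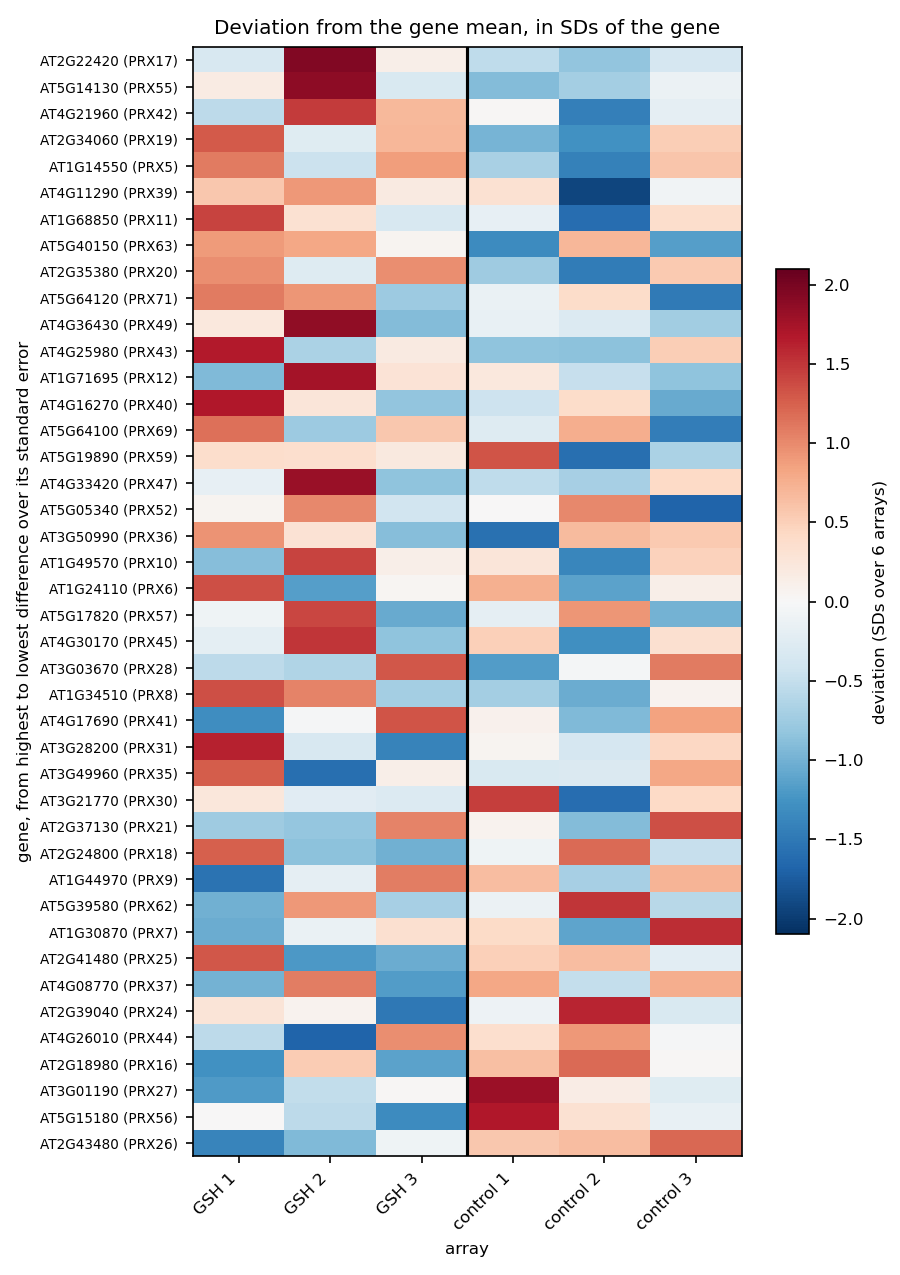
Deviation of each array (x axis, GSH arrays left of the line) from the gene's mean over 6 arrays, in SDs of that gene (colour), for the 42 peroxidase genes (y axis, ordered by difference over its standard error). A GSH array is highest in 31 rows, and the groups are apart only in the rows of AT2G22420 and AT2G43480.

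Genes that supply or share the substrates of the peroxidases were thinly covered. In monolignol synthesis 2 of 19 listed genes were measured, both higher and 0 called. HCT, an acyltransferase of the pathway, deviated by 8.30, 0.185 and 6.85 on the GSH arrays, against 0.641, -5.64 and -10.3 on the controls. Its groups overlapped by 1 array, and the difference was 10.2 millionths (SE 3.68), with a limma adjusted p of 0.709 (unadjusted p = 0.0405). CCR2, a cinnamoyl-CoA reductase, differed by 27.7 millionths (SE 18.7). LAC16 was the single one of 17 laccase genes with a probe, and it differed by 0.0257 millionths (SE 0.176).

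In the Casparian strip list 2 of 9 genes were measured, the receptor kinase gene GSO1 at -0.69 millionths (SE 1.05) and the kinase gene AT1G61590 at 0.0607 (SE 0.125). Of 10 NADPH oxidase genes, whose products make superoxide in the apoplast, 3 were measured, 1 higher and 2 lower. They were AT1G19230 at -1.50 millionths (SE 1.45), AT4G25090 at -0.247 (SE 0.688) and AT4G11230 at 0.0323 (SE 0.154). Of 18 genes for hydrogen peroxide removal and superoxide dismutases, the plastid ascorbate peroxidase genes SAPX and TAPX were measured, at -0.267 (SE 0.197) and 3.18 millionths (SE 1.88). None of 4 wall extensin genes had such a probe. By limma 0 of these 10 genes passed over all probes.

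Of the 60 loci, 18 gave no value. Of these, 7 lay only on probes that the annotation pairs with several genes, and none was named from these. They were AT2G18140 with AT2G18150, AT2G38380 with AT2G38390, AT4G37520 with AT4G37530, each a neighbouring pair on 1 probe, and AT3G17070 with AT3G42570. The other 11 were matched to no probe in the annotation table used here and were not analysed. Among them were AT3G49110 and AT3G49120 (PRX33 and PRX34), which feed the oxidative burst of Arabidopsis in defence, and AT5G42180 (PRX64) and AT1G05260 (PRX3) of the Casparian strip. AT1G05240, AT5G67400 and AT5G22410 of root hairs and AT1G14540, tied to lignin, were also not analysed, nor were AT1G05250, AT3G32980 and AT5G06720.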

How the data were processed

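Root RNA was measured on 6 single-colour arrays, 3 of foliar GSH and 3 of control plants, from 100 ng of total RNA each, per the labels' protocols. The deposited table holds 22810 probes on a scale taken as log2 from its range of 5.09 to 12.9. The submitters' processing notes name R 2.7.2, and the sources used here give neither the log base nor the background correction and summary method. Sizes of differences were therefore not read as changes in RNA, and their directions hold only for the array levels of the deposited table.

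Values were used as deposited, the choice set for array medians within 0.1 of each other. The medians lay within 1.65 millionths, which is about the range of a typical probe here, so results with centred arrays are given beside the main ones. After 64 control probes were left out, 22746 were fitted by lmFit and eBayes of limma 3.58.1 under R 4.3.3, with Benjamini-Hochberg adjustment over all of them, a threshold of 0.05 and no filter on dim probes. The fit was tested on simulated data with known shifts. A pass was required only for the larger of the shifts tried, and only where all probes had the same spread, which these probes do not have. The annotation pairs 13513 of the probes with 1 gene, 503 with several and 8730 with none. A gene was read from its probe with the highest mean. PRX numbers and roles are background from Arabidopsis and not from the annotation. The members and lists were chosen with earlier results of these data known. Full values were given for the 5 brightest members, the 6 with the smallest p, the 3 widest differences each way and the members of the root hair, Casparian strip and lignin groups. No depth in counts applies to arrays, and their number limits the precision. Alternatives were quantile normalization, median-centred arrays, the replicate block, leaving out each array, rescaled probes, bright probes only, trended or robust variance, Welch's test and an adjusted p of 0.10. The gene table of rape supplied as a reference was not used, and no sequences were analysed here.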

Additional observations from a re-analysis of the deposited data

How the results depend on the processing

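No peroxidase gene was called by limma in any setting but 1, and the genes of the related lists gave 0 calls in all settings run. Not every setting tested all 42 members. Only 6 still varied and were fitted after quantile normalization, and 21 were among the probes above the median signal. The other members could not be called in those settings. With each probe rescaled to the fourth root of its SD, 2 members were called, AT4G36430 (limma adjusted p = 0.00105) and AT4G21960 (limma adjusted p = 0.0457). In that setting limma used 1 spread for all probes (infinite prior degrees of freedom, against 0.83 as deposited), and both genes had overlapping groups. Over all probes limma called 0 as deposited, where 1535 had an unadjusted p under 0.05. It called 27 among the 2688 probes that quantile normalization left varying, 308 after rescaling, 4 among probes above the median signal, 4 at an adjusted p under 0.10 and 1 with the replicate block. The block called 0 members. Deviations of same-numbered arrays from their group means had Pearson correlations of -0.451, -0.473 and -0.00627. The Spearman correlations were -0.0507, -0.0437 and 0.171. Arrays of unlike number reached 0.564 by Pearson and 0.186 by Spearman, so the numbers were not taken to pair the arrays. The count of members with groups apart was 2, 0 of 6 still varying under quantile normalization (2.05% of the 2688 probes varying), and 4 to 10 without single arrays (9.52% to 23.8% of members, against 19.9% to 23.2% of all probes), where fewer arrays are compared. Every member had 1 probe, so the mean of all probes gave the same values. The median signal percentile was 50.9 without any single array.

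Centring arrays on their medians raised every difference by the same 0.598 millionths, so 33 members were then higher and 9 lower, against 25 and 17. Over all probes 81.4% were then higher, against 51.9% as deposited, so the move was not particular to the family. This turned 8 members, to 0.308 for AT2G18980, 0.328 for AT2G24800, 0.25 for AT2G37130, 0.483 for AT3G21770, 0.41 for AT3G28200, 0.535 for AT3G49960, 0.386 for AT4G08770 and 0.593 for AT4G17690. Groups were then apart at 2 members, AT1G14550 and AT4G25980 (4.76% of members, against 9.94% of all probes), and overlapped at AT2G43480 and AT2G22420. Quantile normalization turned AT5G14130 to -5.45, and the cause was not tested. Of the 42 members, 39 turned or moved by more than 1.5 times without 1 array, the exceptions being AT2G18980, AT2G34060 and AT2G43480.

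Without single arrays 18 members changed sign at least once, with values (in millionths) of -0.451 to 0.756 for AT1G24110, -3.84 to 0.195 for AT1G30870, -10.1 to 2.13 for AT1G44970, -0.0165 to 0.089 for AT1G49570, -0.756 to 0.0588 for AT2G24800, -0.969 to 0.254 for AT2G37130, -0.57 to 0.689 for AT3G03670, -0.636 to 0.304 for AT3G21770 and -1.94 to 1.26 for AT3G28200. The others were -0.377 to 0.295 for AT3G49960, -0.369 to 0.556 for AT3G50990, -0.375 to 0.359 for AT4G17690, -0.02 to 0.043 for AT4G30170, -1.98 to 9.06 for AT4G33420, -0.269 to 0.973 for AT5G05340, -0.185 to 0.276 for AT5G17820, -0.16 to 7.72 for AT5G19890 and -1.28 to 0.0988 for AT5G39580.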
